A study of Mus musculus with 95 samples.

Results

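The comparison described here is the RNA-seq of mouse embryonic stem cells lacking Pcgf2 and Bmi1 (Pcgf4), called Pcgf2/4-/-, against the wild-type E14 line they derive from. It takes in all genes of the deposited count table and 4 of its 14 RNA-seq libraries, in a series of 95 samples: 2 libraries from wild-type and 2 from Pcgf2/4-/-. E14 is an established male mouse embryonic stem cell line. Both lines were grown on gelatin in serum with leukemia inhibitory factor and inhibitors of GSK3β and of MEK1/2, so the controls carry these inhibitors too. The knockouts were made with Cas9 and guide RNAs, isolated as clones, and double knockouts came from editing a single-knockout clone, so the Pcgf2/4-/- libraries stand for an edited clonal line and not for many independent ones. Nothing in the labels says that libraries of a group came from separate cultures, and p-values then measure only the spread between these libraries.

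Polycomb repressive complex 1 (PRC1) is an E3 ligase that places ubiquitin on a lysine of histone H2A. Its canonical form holds PCGF2 or BMI1, a RING1 protein, a CBX protein that reads H3K27me3, and a PHC protein that can compact chromatin, while variant forms hold other PCGF proteins with RYBP or YAF2. H3K27me3 is placed by PRC2, of which SUZ12 is a core subunit. In embryonic stem cells these complexes sit at CpG-rich promoters of developmental regulators such as the Hox genes, most of which are silent or low there.

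The wild-type libraries held 6827571 and 6967931 counts, and the Pcgf2/4-/- libraries 2764111 and 7547984, a difference of 2.73 times between the knockout libraries. The 2 wild-type libraries differed from each other by no more than sampling noise (chi-square per degree of freedom 0.937 over 13223 genes), whereas the Pcgf2/4-/- pair gave 21.4 and the other lines 1.18 to 11.1. The wild-type libraries were therefore not read as 2 independent samples, and both of their values are given without an SD. The 4-library edgeR fit still took them as 2 replicates. Its SE and adjusted p thus rest in part on a pair that differs by no more than sampling noise. The counts over all genes, the canonical class and the gene lists are also given with them summed as 1 sample. The first, shallower knockout library also stood apart in composition. Ribosomal protein genes summed to 9675 and 9873 CPM (counts scaled to library size) in wild-type, 24218 in knockout library 1 and 9349 in knockout library 2, and the part of this difference in single results was not tested.

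The targeted genes were not called different from wild-type at the RNA level. Pcgf2 (ENSMUSG00000018537.9, chromosome 11, 97550137 to 97561811 in mm9) had 41.5 and 47.1 CPM in wild-type and 42.3 and 54.0 in Pcgf2/4-/- (log2 fold change 0.15, SE 0.16, edgeR adjusted p = 0.587). Bmi1 (ENSMUSG00000026739.7, chromosome 2, 18598645 to 18608256) had 15.6 and 13.7 against 12.5 and 13.8 (log2 fold change -0.13, SE 0.23, edgeR adjusted p = 0.743). The values of both genes overlapped between the groups. The counts sum over the whole gene and the edited stretch is not given in the sources used here, so these levels do not check the knockout. In the deposited peak lists, PCGF2 peaks numbered 4472 in wild-type (4.46 Mb) and 1050 in Pcgf2/4-/- (0.434 Mb), from 1 ChIP library each.

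Loss of Pcgf2 and Bmi1 was accompanied by more lowered than raised genes. By the quasi-likelihood test of edgeR, with p adjusted by Benjamini and Hochberg and 0.05 as the threshold, 440 of 13237 tested genes were raised (3.32%) and 706 were lowered (5.33%). The median log2 fold change was 1.27 among the raised and -2.02 among the lowered. The filter on low counts keeps a gene that is high in either group. Of the 706 lowered genes, 347 passed it without reaching its level in both knockout libraries. Of the 440 raised genes, 103 passed it without reaching its level in both wild-type libraries. The calls that reached it in both libraries of the group where they were lower numbered 359 lowered and 337 raised. With the wild-type libraries summed as 1 sample, 166 of 13851 tested genes were raised (1.2%) and 459 lowered (3.31%). Only 104 of the 440 raised and 376 of the 706 lowered genes were among these in the same direction. Without either wild-type library the count of changed genes was 438 and 471. A smaller group of 58 raised and 200 lowered genes passed the test in the same direction in 7 fits (TMM and RLE factors, DESeq2, loess offsets, thinning to the shallowest library, wild-type summed, and all 14 libraries). The excess of lowered genes was not seen in every fit: with loess offsets, which remove the trend of fold change with expression level, 1138 were raised and 1193 lowered, and in the fit of all 14 libraries without knockout library 1, 1919 were raised and 1588 lowered.

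**Figure D1:**
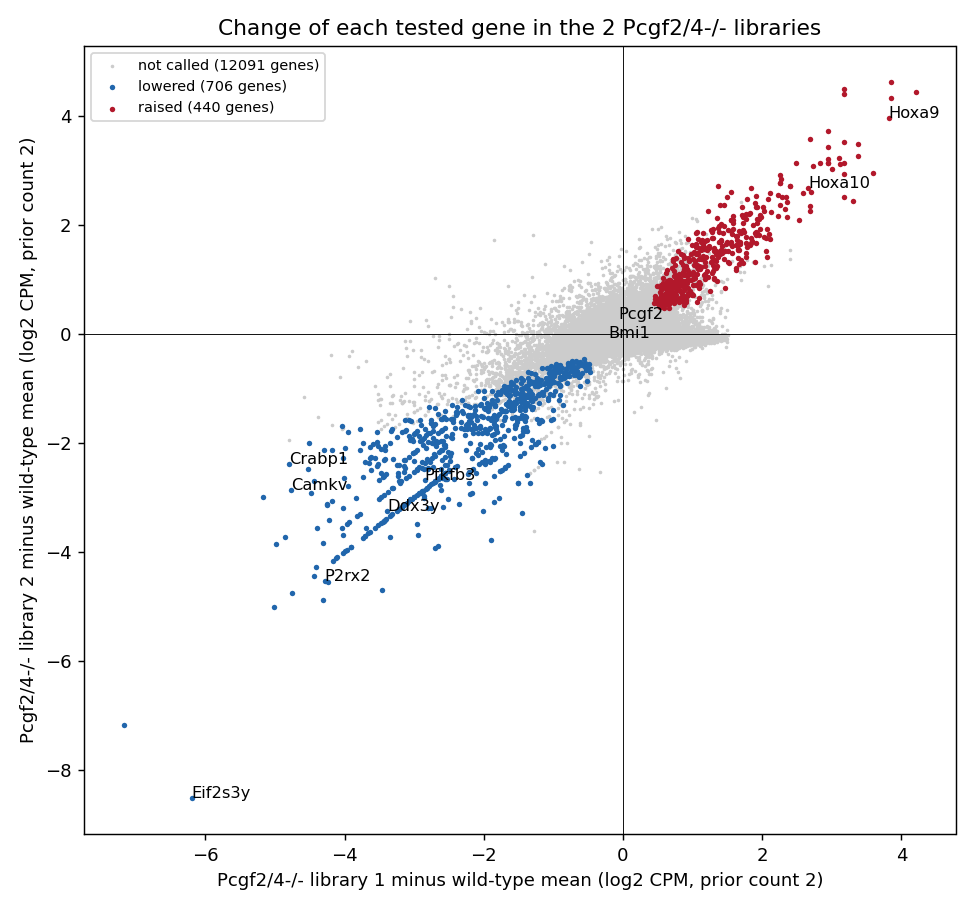
Each point is 1 of 13237 tested genes; the x axis is the log2 CPM difference (prior count 2) of Pcgf2/4-/- library 1 from the wild-type mean and the y axis that of library 2. Hoxa9 and Hoxa10 lie far along the diagonal among the 440 raised genes, Y-linked Eif2s3y and P2rx2 among the 706 lowered genes, and the targeted Pcgf2 and Bmi1 lie near 0.

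The 2 genes raised farthest by the naming rule, which takes genes of mean log2 CPM 2 or more, were posterior Hox genes. Hoxa9 (ENSMUSG00000038227.7, chromosome 6, 52173099 to 52181088), a homeobox factor of posterior body patterning, had 1.52 and 0.948 CPM in wild-type and 21.2 and 23.7 in Pcgf2/4-/- (log2 fold change 4.18, SE 0.33, edgeR adjusted p = 0.0141). Its neighbour Hoxa10 (ENSMUSG00000000938.9, chromosome 6, 52181196 to 52190853) had 3.58 and 4.06 against 25.9 and 26.3 (2.77, SE 0.25, edgeR adjusted p = 0.018). Both knockout libraries were far above both wild-type libraries, and both genes passed all 7 fits. Hoxa9 overlaps 3 other annotated genes on its strand, so its reads could belong in part to these. Ttn, which encodes the muscle protein titin, had 13.1 and 11.8 CPM against 47.9 and 63.7 (2.19, SE 0.20). Maml2, a coactivator of Notch signalling, had 3.17 and 2.98 against 13.0 and 15.2 CPM (2.22, SE 0.28).

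The 12 most raised genes by the naming rule also included Fggy, a carbohydrate kinase gene (log2 fold change 2.51), Gucy1a2, a guanylate cyclase subunit (2.31), Slc44a3, a choline transporter-like gene (2.28), Lpar4, a lysophosphatidic acid receptor (2.54), Fam83h (2.35), Txlnb (1.98) and the predicted gene Gm4371 (1.91). The edgeR adjusted p of these 7 lay between 0.0199 and 0.0286. With the wild-type libraries summed, Gucy1a2 and Txlnb missed the threshold (adjusted p = 0.0551 and 0.051).

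The genes lowered farthest included 3 from the Y chromosome. Eif2s3y, a translation factor gene, had 118.6 and 117.6 CPM in wild-type, and 3 and 0 counts in the knockout libraries, which is 0.247% of wild-type (95% exact interval 0.051 to 0.724%, counting error only). Ddx3y, an RNA helicase gene, had 100.4 and 95.9 CPM against 9.07 and 10.1 (log2 fold change -3.33, SE 0.14). Uba1y, a ubiquitin-activating enzyme gene, had 58.7 and 56.5 CPM against 2.59 and 1.64 (-4.92, SE 0.25). Uty, a histone demethylase relative outside the naming rule but on the Y chromosome list, had 352 and 321 counts in wild-type and none in either knockout library, at least 157.5-fold lower with a floor of 3 counts over the group. Kdm5d, the remaining member of that list, had no counts in any of the 4 libraries. In the normalization of all 14 libraries, Eif2s3y was at 0 to 0.457 CPM in Pcgf1-/-, Pcgf3/5-/-, Pcgf6-/- and Pcgf1/2/4-/-, and at 60.4 and 63.2 in Pcgf3/5/6-/-.

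P2rx2, an ATP-gated ion channel gene on chromosome 5, had 48.3 and 47.7 CPM in wild-type and 2.16 and 1.76 in Pcgf2/4-/- (log2 fold change -4.67, SE 0.24, edgeR adjusted p = 0.00577). Ptgs1, which encodes a cyclooxygenase of prostaglandin synthesis, had 22.3 and 21.8 CPM against 0.864 and 0.629 (-4.97, SE 0.36). Trf, which encodes transferrin, the iron carrier of plasma, had 35.4 and 25.3 CPM against 1.30 and 2.52 (-3.78, SE 0.37). In each of these genes the knockout libraries lay together and far below the wild-type libraries. The others among the 12 most lowered were the predicted gene Gm216 (-3.75), the tetraspanin gene Tspan7 (-3.26), the kinase-like gene Camkv (-3.35), the organic solute transporter gene Slc51a (-3.14), Pfkfb3 (-2.80) and Aebp1 (-2.98). All 12 passed the test with the wild-type libraries summed.

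Several genes had reads in only 1 of the groups. Kctd15 had 68 and 79 counts in wild-type and none in Pcgf2/4-/- (at least 34.4-fold lower), and Tktl1, a transketolase-like gene on chromosome X, had 68 and 55 against none (at least 28.8-fold lower). Conversely, Hdx, a homeobox gene on chromosome X, had no wild-type counts and 13 and 53 in the knockout libraries (at least 31.3-fold higher). Pax3, a regulator of neural crest and muscle progenitors, had none against 10 and 49 (at least 28.0-fold higher). Kctd15, Tktl1 and Hdx fall outside the naming rule and were picked after their values were seen.

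Genes with canonical PRC1 at their promoters in wild-type cells were lowered more often than raised. A gene was put in this class when a wild-type PCGF2, a RING1B and a SUZ12 peak each lay within 2.5 kb of an annotated transcript start: 2138 of 21001 annotated genes, of which 900 passed the filter on low counts. Of these 900, 45 were raised (5.0%, against 3.32% of all genes) and 169 lowered (18.8%, against 5.33%), and 686 did not pass the test. With the wild-type libraries summed, 32 of 1034 were raised and 128 lowered. Of the raised and lowered genes of the class, 6 and 50 passed all 7 fits. Because the filter keeps a gene that is high in either group, 24 of the 45 raised genes passed it without reaching its level in both wild-type libraries, and 100 of the 169 lowered genes without reaching it in both knockout libraries. In bulk RNA, fewer cells with a transcript and less transcript per cell cannot be told apart.

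The shift of the class was larger in the shallower knockout library. The median log2 fold change over the 900 genes was -0.32, against 0.06 over all tested genes, and the median difference from wild-type was -0.61 in knockout library 1 and -0.18 in library 2. With loess offsets, which remove the trend with expression level, the class median was -0.14 (0.02 over all genes), with 126 raised and 197 lowered. With the second library left out of the fit the class median was -0.74, and with the first left out -0.21. Bound genes are also expressed at a lower level, with a median of 2.24 log2 CPM against 5.71 for the 9659 genes with none of the 3 peaks, and the medians of low genes were below wild-type in both libraries whether bound or not. In the lowest quintile of expression, the class medians were -0.91 and -0.38 in the 2 libraries and those of unbound genes -0.57 and -0.13. In the middle quintile they were -0.40 and 0.04 against -0.20 and 0.11. Of the genes in the lowest quintile, 22.3% of the class and 11.7% of unbound genes were lowered, and 5.77% and 5.24% were raised. Genes with RING1B but no PCGF2 peak were shifted about as much as the class in that quintile. Their medians were -0.99 and -0.39 in the 2 libraries, with 22.96% lowered and 4.07% raised. The differences between the classes were not tested.

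**Figure D2:**
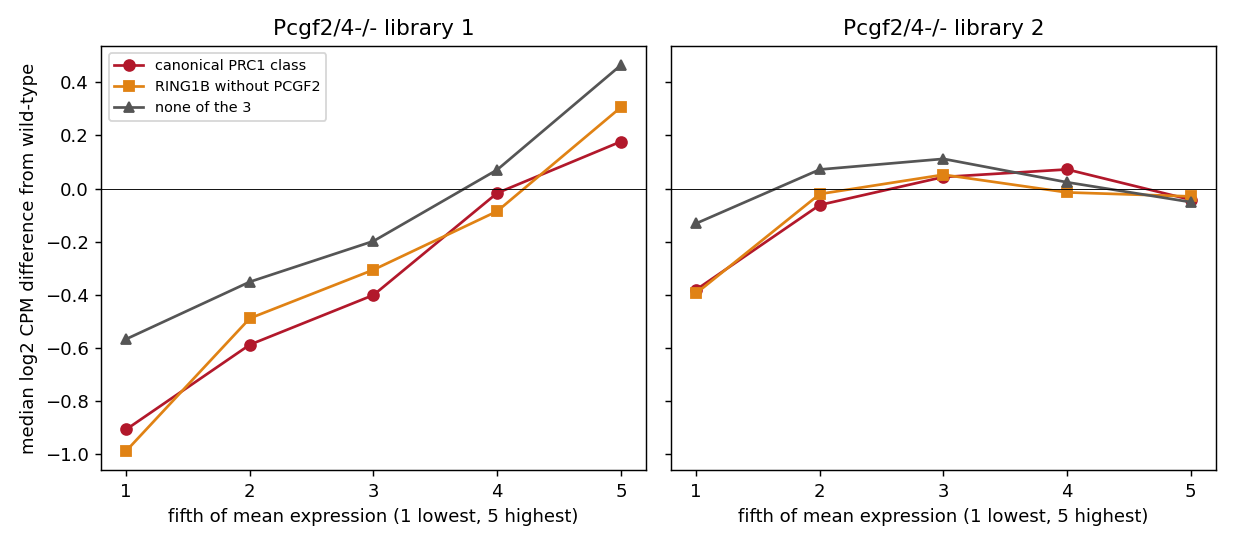
Median log2 CPM difference from wild-type (y axis) in each quintile of mean expression (x axis), for each Pcgf2/4-/- library and 3 promoter classes. In library 1 the medians run from below 0 in the lowest quintile to above 0 in the highest for all 3 classes. In the lowest quintile of both libraries the canonical PRC1 class lies below the genes with none of the 3 peaks, as does the class with RING1B but no PCGF2.

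Promoters that carried the marks in wild-type were shifted about as much as the canonical class. Of 1192 tested genes with H3K27me3 there, 49 were raised and 207 lowered (17.4%, median -0.35), and of 346 with H2AK119ub1 15 were raised and 69 lowered (19.9%, median -0.32); both sets overlap the canonical class. Genes with RING1B but no PCGF2 peak had 26 of 740 raised and 97 lowered (median -0.14), and genes with SUZ12 but no RING1B had 17 of 346 raised and 35 lowered (-0.25). Genes with PCGF2 but no RING1B, which are highly expressed (median 6.37 log2 CPM), had 13 of 637 raised and 8 lowered (0.14). Genes with none of the 3 had 302 of 9659 raised (3.13%) and 352 lowered (3.64%). Read from the changed genes, 45 of 403 annotated raised genes (11.2%) and 169 of 661 annotated lowered genes (25.6%) belonged to the canonical class. The class held 900 of 12289 annotated tested genes (7.32%). These shares were not matched for expression level, and 520 of the 900 lay in the lowest quintile. No test was made.

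Most promoters of the class kept RING1B and SUZ12 peaks in Pcgf2/4-/- cells. Of the 2138 genes, 42 kept a PCGF2 peak, 1992 a RING1B peak and 2127 a SUZ12 peak. Where RING1B was kept, 43 of 832 tested genes were raised and 161 lowered (median -0.31), and where no RING1B peak was called, 2 of 68 were raised and 8 lowered (median -0.34). The share lowered was 19.4% and 11.8%, and the difference was not tested. Peaks were called separately in each single ChIP library: RING1B peaks numbered 5454 over 7.47 Mb in wild-type and 5607 over 4.78 Mb in Pcgf2/4-/-, so a kept peak says nothing of how much RING1B remained. The knockout lists of H3K27me3 and H2AK119ub1 held 112110 and 121944 peaks against 8063 and 1741 in wild-type, and no gain or loss of these marks is read from them.

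The raised genes of the class were led by Hoxa9 and Hoxa10. One broad wild-type PCGF2 peak overlaps the promoter windows of both. Sox21 (ENSMUSG00000061517.6, chromosome 14, 118632454 to 118636252), a SOX factor of neural progenitors, had 4.96 and 2.98 CPM in wild-type and 15.5 and 14.9 in Pcgf2/4-/- (log2 fold change 1.92, SE 0.32, edgeR adjusted p = 0.0244, and 0.0925 with wild-type summed). Zfp385b, a zinc finger gene on chromosome 2, had 3.31 and 4.06 against 13.8 and 18.3 CPM (2.16, SE 0.29). Tspan5, a tetraspanin gene on chromosome 3, had 1.93 and 1.63 against 7.77 and 7.05 CPM (2.02, SE 0.30, adjusted p = 0.119 with wild-type summed). Sfmbt2, an MBT-domain gene related to Polycomb proteins, had 11.4 and 9.89 against 35.4 and 55.0 CPM (2.12, SE 0.26). Sfmbt2 overlaps many other annotated genes on its strand, so its reads could belong in part to these.

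The 6 lowered genes of the class that the naming rule took, all of mean log2 CPM 2 or more, were Pfkfb3, Htra1, Crabp1, Rbp4, Aebp1 and Aif1l; Kctd15, also of the class, had no counts in the knockout. Pfkfb3 (ENSMUSG00000026773.10, chromosome 2, 11393057 to 11423728), which makes an activator of glycolysis, had 32.1 and 34.1 CPM in wild-type and 4.32 and 4.91 in Pcgf2/4-/- (log2 fold change -2.80, SE 0.23, edgeR adjusted p = 0.0157). Htra1 (ENSMUSG00000006205.7, chromosome 7, 138079625 to 138129174), a secreted serine protease, had 13.8 and 15.9 against 1.30 and 2.52 CPM (-2.75, SE 0.35). Crabp1, a carrier of retinoic acid within cells, had 22.9 and 18.4 against 0.432 and 3.65 CPM (-2.89, SE 0.48), and Rbp4, a carrier of retinol, 15.2 and 14.4 against 1.73 and 2.64 (-2.61, SE 0.31). The knockout values of Crabp1 lay far apart from each other, and both were below wild-type. Aebp1, a matrix-associated protein, had 13.8 and 16.0 against 2.16 and 1.76 CPM (-2.98, SE 0.33), and Aif1l, an actin-binding protein, 24.4 and 21.8 against 2.16 and 3.65 (-2.83, SE 0.31).

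The sequences under the wild-type PCGF2 summits of 2 raised and 2 lowered genes of the class are shown to compare their CpG content. Each is the 300 bases centred on the summit of the peak with the highest −log10 q at the promoter, plus strand of NCBIM37 (mm9), with each CG in capitals.
Hoxa10, chr6:52184564-52184863: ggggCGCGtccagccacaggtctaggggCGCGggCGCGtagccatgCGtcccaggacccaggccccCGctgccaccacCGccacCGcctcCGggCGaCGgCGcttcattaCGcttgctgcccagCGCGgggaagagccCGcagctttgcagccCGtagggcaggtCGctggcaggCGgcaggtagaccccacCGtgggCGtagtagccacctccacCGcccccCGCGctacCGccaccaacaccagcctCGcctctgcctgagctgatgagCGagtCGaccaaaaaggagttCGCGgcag
Sox21, chr14:118634530-118634829: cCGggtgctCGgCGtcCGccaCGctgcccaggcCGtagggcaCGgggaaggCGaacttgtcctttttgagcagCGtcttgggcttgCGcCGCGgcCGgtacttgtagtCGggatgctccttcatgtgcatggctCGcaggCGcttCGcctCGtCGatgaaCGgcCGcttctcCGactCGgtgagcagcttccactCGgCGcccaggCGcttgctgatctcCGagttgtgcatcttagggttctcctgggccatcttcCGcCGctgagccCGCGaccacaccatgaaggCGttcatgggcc
Pfkfb3, chr2:11424597-11424896: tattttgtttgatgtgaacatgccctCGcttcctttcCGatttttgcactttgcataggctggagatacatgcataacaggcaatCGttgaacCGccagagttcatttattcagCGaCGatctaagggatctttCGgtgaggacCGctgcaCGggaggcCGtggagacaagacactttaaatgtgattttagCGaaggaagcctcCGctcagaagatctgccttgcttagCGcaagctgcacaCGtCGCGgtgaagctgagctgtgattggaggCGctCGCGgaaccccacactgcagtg
Htra1, chr7:138080021-138080320: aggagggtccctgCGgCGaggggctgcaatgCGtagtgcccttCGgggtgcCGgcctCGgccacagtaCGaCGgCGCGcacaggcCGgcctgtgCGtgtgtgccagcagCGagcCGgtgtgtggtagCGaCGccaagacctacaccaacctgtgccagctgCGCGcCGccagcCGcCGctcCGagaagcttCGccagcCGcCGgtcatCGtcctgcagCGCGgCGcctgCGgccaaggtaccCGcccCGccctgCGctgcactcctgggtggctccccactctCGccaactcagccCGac
The Hoxa10, Sox21 and Htra1 windows lie in exons of those genes, and the Pfkfb3 window lies outside the gene, 1019 bases upstream of the nearest annotated start. They hold 32, 32, 19 and 35 CG dinucleotides, a count that is the same on both strands. Over the class the median was 26 in the windows of 45 raised genes, 27 in those of 169 lowered genes and 26 in those of 686 genes not called, against 23 over 4471 PCGF2 summits and 15 over 21000 annotated gene starts. At least 1 CG was present in 99.6% of the summit windows and 96.1% of the gene start windows. Neighbouring genes can share a peak, and no test was made.

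Members of the gene lists were counted next, to be read beside 3.32% raised and 5.33% lowered over all tested genes. Of 39 Hox genes, 35 had promoters of the canonical class, 8 had no counts in any of the 4 libraries and 14 passed the filter. Of these 14, 9 were raised and none lowered; 5 of the raised genes reached the filter's level in both wild-type libraries, and the other 4 passed it through the knockout libraries. Hoxa7 had 11.2 and 10.2 CPM in wild-type and 30.2 and 34.1 in Pcgf2/4-/- (log2 fold change 1.61, SE 0.20), and Hoxb13, which is not of the canonical class, 8.55 and 7.99 against 22.5 and 34.6 (1.84, SE 0.28). The raised members also included Hoxa3, Hoxb9, Hoxc9 and Hoxc10, all below 7 CPM in every library. Hoxa2, Hoxb7, Hoxc4, Hoxc5 and Hoxc13 did not pass the test. The HoxD cluster stayed low, with no member above 1.52 CPM in any library and none tested. With wild-type summed, 6 Hox genes were raised.

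**Figure D3:**
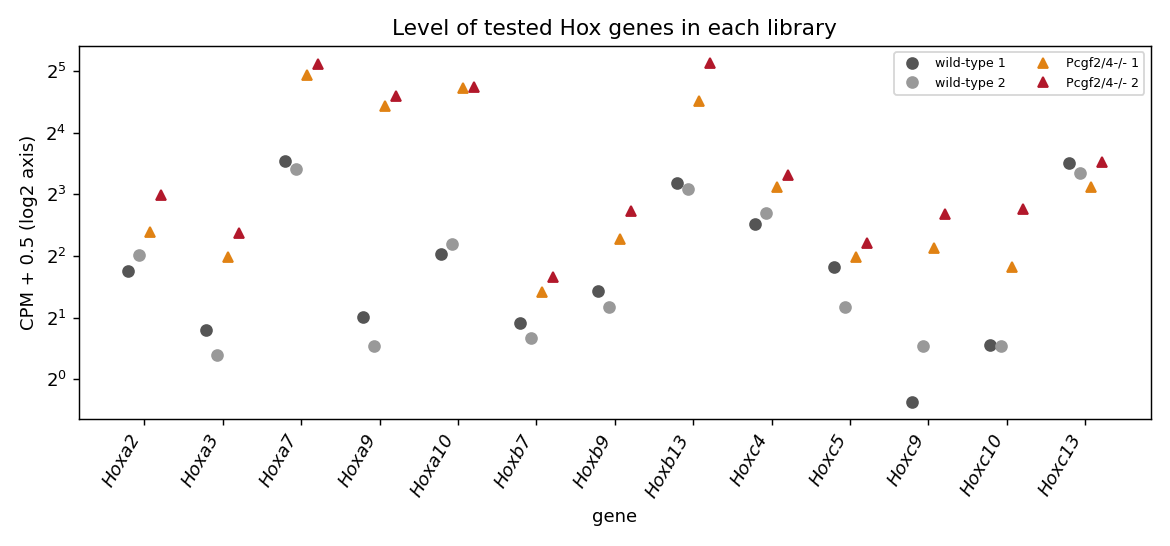
CPM plus 0.5 on a log2 axis (y) for 13 of the 14 tested Hox genes (x) in 2 wild-type libraries (circles) and 2 Pcgf2/4-/- libraries (triangles). For each raised gene shown, both triangles lie above both circles, with the widest gap at Hoxa9.

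The 7 embryonic stem cell markers, the labelled cell type, were all expressed and summed to 1331 and 1337 CPM in wild-type and 2410.0 and 1343 in Pcgf2/4-/-. Pou5f1 had 258 and 262 CPM in wild-type and 587 and 250 in Pcgf2/4-/-, Nanog 123 and 120 against 183 and 128, and neither passed the test. The counts that follow stand beside 3.32% raised and 5.33% lowered over all genes. Of 18 core pluripotency genes Sox2 was raised (log2 fold change 0.86), and Lin28a and Lin28b, which block maturation of let-7 miRNAs, were lowered (-0.73 and -1.43); none of these calls held with wild-type summed. Of 21 naive pluripotency genes Prdm14 and Dppa3 were raised (0.58 and 1.16) and Socs3, a feedback inhibitor of STAT3 signalling, was lowered (160.9 and 165.9 against 49.7 and 84.4 CPM, -1.26). Dppa3 and Socs3 held with wild-type summed.

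Markers of other cell types were low. The 10 fibroblast markers summed to 46.2 and 42.5 CPM in wild-type and 33.2 and 53.4 in Pcgf2/4-/-, of which Pdgfrb made 31.0 and 31.0 against 28.9 and 48.8, with Col3a1, Dcn and Postn at 0. The 6 primitive endoderm markers summed to 3.45 and 2.98 against 3.45 and 4.78 CPM, with Gata4 and Sox17 at 0, and the 6 neural markers to 1.93 and 1.35 against 0.864 and 0.755, with Olig2 at 0. The 6 trophoblast markers summed to 14.1 and 15.6 against 16.0 and 21.6, nearly all from Gata3.

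Regulators of differentiation moved in both directions. Their counts stand beside 3.32% raised and 5.33% lowered over all genes. Of 48 neural regulators, 45 with canonical promoters, 12 were tested, 4 were raised (Pax3, Sox21, Irx2 and Otx1) and none lowered, and 3 of the 4 passed the filter through the knockout libraries. Of 50 mesoderm regulators 17 were tested, 2 were raised and 4 lowered. Of the 4 lowered, 3 passed the filter through the wild-type libraries, and of the 2 raised, 1 passed it through the knockout libraries. T, the mesoderm regulator brachyury, was lowered (35.01 and 28.85 against 11.23 and 13.97 CPM, log2 fold change -1.30, SE 0.22), as were Tbx20 (9.79 and 7.45 against 0.432 and 1.51, -2.77), Gata2 (-4.25) and Twist1 (-2.95), while Tbx5 and Eya1 were raised (3.33 and 0.85). No member of the endoderm list was called among 12 tested; with wild-type summed, 3 were raised, among them Dab2 and Pdx1, each under 5 CPM. Of the trophoblast list Tfap2c and Ets2 were lowered (-1.86 and -1.03) and Tfap2a raised (0.82) among 11 tested. With wild-type summed, Tbx5, Tbx20, Gata2 and Twist1 held and T and Eya1 did not, no trophoblast gene was called, and the neural list had 2 genes raised (Pax3 and Dlx1) and 1 lowered (Atoh1).

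Among signalling genes, against 3.32% raised and 5.33% lowered over all genes, the FGF and ERK list had 4 of 20 tested genes lowered and none raised: the ligands Fgf15 and Fgf17 (-2.43 and -2.91), the feedback inhibitor Spry4 (96.4 and 92.4 against 34.1 and 54.1 CPM, -1.05) and the transcription factor Etv4 (-0.87). In the Wnt list, 4 of 33 were raised, namely Tcf7l1 (0.54), Tcf7l2 (0.82), Sp5 (1.28), a direct target of the pathway, and Porcn (0.61), and Wnt5b (-0.98), Fzd6 (-1.998) and the secreted Dkk3 (16.4 and 18.3 against 2.59 and 2.52 CPM, -2.76) were lowered. Of 36 genes of the TGF-beta and BMP list, Id1, a target of BMP signalling (78.4 and 78.0 against 31.5 and 36.2 CPM, -1.19), and Bmp8b (-2.84) were lowered and Smad7 was raised (0.82). Of the lowered genes, 2 of 4 in the FGF and ERK list passed the filter through the wild-type libraries. The same was true of 1 of 3 in the Wnt list and 1 of 2 in the TGF-beta and BMP list. All raised genes of these lists reached the filter's level in both wild-type libraries. With wild-type summed, Fgf15, Fgf17, Spry4, Id1, Bmp8b and Dkk3 held, and no raised call of these 3 lists did.

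In the canonical PRC1, variant PRC1 and PRC2 subunit lists 7.14%, 4% and 0% of tested genes were raised, against 3.32% over all genes. None was lowered, against 5.33% over all genes. Of 14 canonical PRC1 subunits Cbx8, a chromodomain protein whose own promoter is of the canonical class, was raised (10.3 and 12.2 against 25.04 and 38.0 CPM, log2 fold change 1.53, SE 0.27, edgeR adjusted p = 0.0272, and 0.0539 with wild-type summed). Of 25 variant PRC1 subunits Fbrsl1 was raised (1.93 and 2.57 against 8.20 and 11.2 CPM, 2.17); with wild-type summed neither list had a call. Pcgf5 had 12.5 and 10.4 against 3.89 and 5.79 CPM (-1.14, adjusted p = 0.0762), both knockout libraries below wild-type. None of 11 tested PRC2 subunits was called.

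The counts in other lists also stand beside 3.32% raised and 5.33% lowered over all genes. Dnmt3l, a cofactor of de novo DNA methylation, was lowered (177.7 and 173.6 against 78.6 and 83.6 CPM, -1.11), as was Tet3 (-1.26), of 8 DNA methylation genes. Of 13 tested genes of the 2-cell-like list Zscan4c, Zscan4d and Tmem92 were lowered (-1.12, -0.82 and -1.86); the Zscan4 genes are near-identical copies among which reads can be split. Of 19 germline genes Sycp3, a protein of the meiotic chromosome axis, was raised (13.5 and 12.5 against 49.7 and 41.9 CPM, 1.80) and Zcwpw1 and Mei1 were lowered (-1.01 and, from 1.79 and 2.30 CPM, to no counts). Of 32 imprinted genes Peg10 and Sgce, which are neighbours, were raised (0.98 and 0.70) and Mest, Ndn, Phlda2 and Plagl1 lowered (-0.84, -1.26, -0.60 and -0.93). None of 71 ribosomal protein, 58 oxidative phosphorylation and 21 cholesterol synthesis genes was called. Their medians were 1.31, 1.12 and -0.11 in knockout library 1 and -0.08, -0.07 and -0.14 in library 2, so the medians of the first 2 lists were above 0 in library 1 and not in library 2. With wild-type summed, of the calls in these lists Tmem92, Sycp3, Mei1 and Plagl1 held, and no DNA methylation gene was called. Mei1 had passed the filter through the wild-type libraries.

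In the remaining lists, 1 of 6 CDK inhibitors (Cdkn1b, 0.83), 2 of 18 amino acid stress genes (Atf3 and Sesn2, 2.31 and 1.07) and 3 of 19 p53 targets (Pmaip1, Trp53inp1 and Plk2, 0.86, 1.02 and 0.88) were raised, and Fas fell to no counts from 1.38 and 1.63 CPM. Over all genes 3.32% were raised and 5.33% lowered. Of 10 primed epiblast genes Fgf15 was lowered. Of 19 glycolysis genes Pdk1 was lowered (119.4 and 118.9 against 38.9 and 58.1 CPM, -1.26). Of 35 matrix and adhesion genes Col1a1, Col5a1, Itgb1 and Cyr61 were lowered (-3.15, -2.08, -0.57 and -1.12), and Ctgf and Timp3 raised (0.52 and 1.73). Lum, with Col1a1 on the fibroblast list, fell from 4.27 and 3.25 CPM to no counts. Fas, Fgf15, Col1a1 and Lum passed the filter through the wild-type libraries. Of the raised genes, 1 amino acid stress gene and 1 matrix gene passed it through the knockout libraries. In knockout library 1, 3 counts make 1.3 CPM, close to the wild-type level of Fas. With wild-type summed, every raised call of these lists was lost, and Fas, Fgf15, Pdk1, Col1a1, Col5a1 and Lum held among the lowered.

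**Figure D4:**
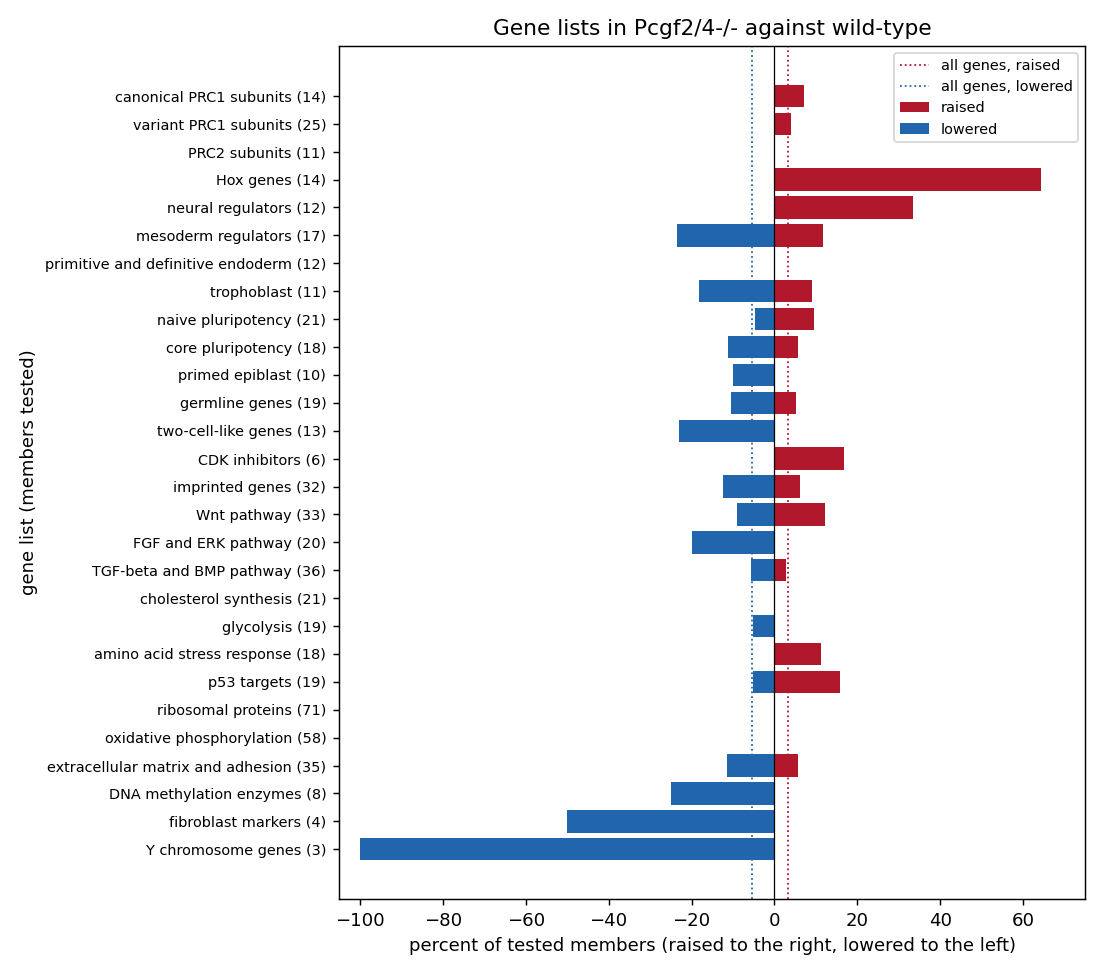
Percent of tested members of each of 28 gene lists that were raised (right) or lowered (left) in Pcgf2/4-/-, with the number tested in brackets and dotted lines at 3.32% and 5.33%, the shares over all tested genes. The Hox list has the highest raised share, 9 of 14, and the lists of ribosomal proteins, oxidative phosphorylation, cholesterol synthesis, endoderm and PRC2 have no called member.

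Loss of the same 2 genes on a Pcgf1-/- background was read from Pcgf1/2/4-/- against Pcgf1-/-, in libraries that share none with the comparison above. Nothing in the labels says that Pcgf1/2/4-/- came from the Pcgf1-/- line sequenced here. Y-linked Ddx3y had 0.328 and 0.229 CPM in Pcgf1-/-, 14.95 and 15.35 in Pcgf1/2/4-/- and 8.80 and 10.2 in Pcgf2/4-/-. Other differences between the lines can enter this contrast, and their part was not tested. Between Pcgf1/2/4-/- and Pcgf1-/-, edgeR's quasi-likelihood test called 2835 of 12139 genes raised (23.4%) and 3325 lowered (27.4%). Of the 440 genes raised in Pcgf2/4-/-, 360 were tested there, 74 were raised (20.6% of these and 2.61% of the 2835) and 155 lowered (43.1%). Of the 706 lowered, 482 were tested, 176 were lowered (36.5% of these and 5.29% of the 3325) and 109 raised (22.6%). Against 23.4% and 27.4% of all genes tested there, the raised genes' share in the same direction was lower and the lowered genes' share higher. In the opposite direction, 43.1% of the raised genes were lowered, against 27.4% of all genes. Of the lowered genes 22.6% were raised, against 23.4%. The overlap was not tested.

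Single genes ran in different ways. P2rx2 had 54.0 and 45.0 CPM in Pcgf1-/- and 2.67 and 1.36 in Pcgf1/2/4-/- (log2 fold change -4.64, edgeR adjusted p = 1.81e-21), both knockout libraries far below both Pcgf1-/- libraries. Hoxa10 was already at 24.7 and 19.7 CPM in Pcgf1-/- and had 43.3 and 47.4 in Pcgf1/2/4-/- (1.02, edgeR adjusted p = 4.03e-06). Hoxa9 had 11.6 and 10.1 against 17.1 and 17.2 (0.65, edgeR adjusted p = 0.0624). Crabp1 was low in Pcgf1-/-, at 1.42 and 0.457, and higher in Pcgf1/2/4-/-, at 18.7 and 23.5. Htra1 likewise had 1.42 and 1.14 against 37.9 and 31.2 CPM. The targeted Pcgf2 had 30.17 and 28.35 CPM in Pcgf1-/- and 57.1 and 56.9 in Pcgf1/2/4-/- (0.97, edgeR adjusted p = 2.47e-07). Bmi1 was not called there (0.10, edgeR adjusted p = 0.794). Kctd15, without reads in Pcgf2/4-/-, had 7.22 and 5.72 in Pcgf1-/- and 20.3 and 12.2 in Pcgf1/2/4-/-. Tubb3, a neuronal tubulin gene chosen after its values were seen, had 80.9 and 83.6 CPM in wild-type, 8.38 and 14.7 in Pcgf2/4-/- and 85.4 and 91.7 in Pcgf1/2/4-/-.

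**Figure D5:**
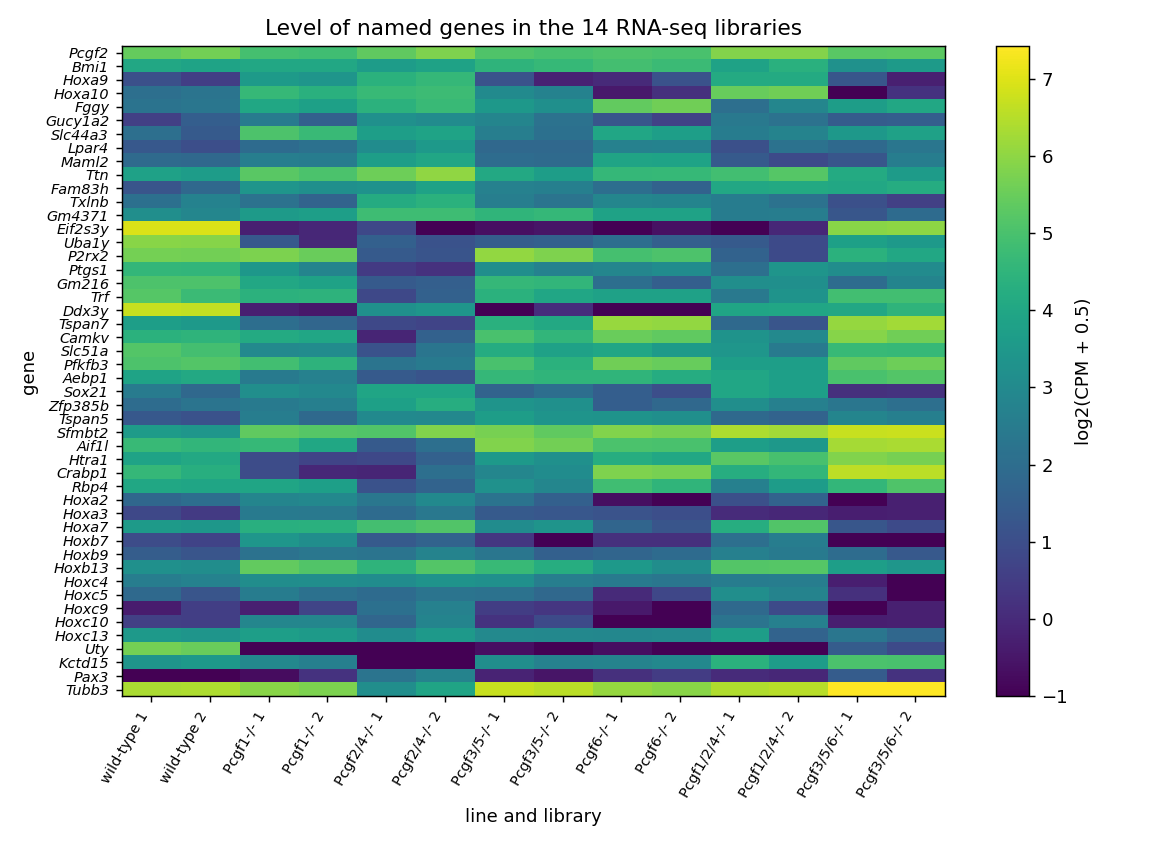
log2(CPM + 0.5), by colour, of the named genes (rows) in the 14 RNA-seq libraries (columns). P2rx2 is lowest in the 4 libraries of Pcgf2/4-/- and Pcgf1/2/4-/-, and Hoxa9 and Hoxa10 are highest in the 6 libraries of these lines and Pcgf1-/-.

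Pcgf2/4-/- was also set against the 4 knockout lines that keep Pcgf2 and Bmi1 (Pcgf1-/-, Pcgf3/5-/-, Pcgf6-/- and Pcgf3/5/6-/-), a contrast that reuses the Pcgf2/4-/- libraries. It called 3107 of 15464 genes higher (20.1%) and 3145 lower (20.3%). Hoxa9 and Hoxa10 were higher than the mean of these lines (3.50 and 3.56 on the log2 scale, edgeR adjusted p = 5.54e-07 and 8.98e-08). The lines were not alike in these genes. Hoxa10 had 25.1 and 26.7 CPM in Pcgf2/4-/-, 24.7 and 19.7 in Pcgf1-/- and 0 to 7.75 in the other lines of the mean. Hoxa9 had 11.6 and 10.1 CPM in Pcgf1-/- and 0.338 to 1.896 in those other lines. P2rx2, Pfkfb3 and Aif1l were lower than the mean (-4.27, -2.83 and -3.63). Of the targeted genes, Pcgf2 was higher than the mean and Bmi1 lower (0.58 and -0.43, edgeR adjusted p = 0.00055 and 0.0438). Tspan5, Sfmbt2 and Slc44a3 did not differ from the mean by the test (-0.02, -0.25 and 0.14, edgeR adjusted p = 0.992, 0.159 and 0.617). Sfmbt2 had 34.4 and 55.8 CPM in Pcgf2/4-/- and 36.1 to 106.5 in the other knockout libraries, against 11.8 and 10.3 in wild-type.

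Some raised genes lay near each other on 2 chromosomes. In 10-Mb windows with at least 10 genes of mean log2 CPM 3 or more, both knockout medians exceeded 0.25 in 6 windows and fell below -0.25 in none. The windows covered 90 to 130 Mb of chromosome 3 and 0 to 20 Mb of chromosome 4 in mm9. On chromosome 3 they held 180 genes, of which 134 and 151 were higher in the 2 knockout libraries and 24 were raised, with medians of 0.33 and 0.29 (14-library normalization); on the rest of the chromosome 13 of 272 were raised, with medians of 0.01 and -0.001. On chromosome 4 they held 34 genes, 30 and 33 of them higher and 17 raised, with medians of 0.63 and 0.73; on the rest 21 of 581 were raised, with medians of -0.02 and -0.02. Over all 9514 genes of that level, 4955 and 4881 were higher and 259 raised, with medians of -0.06 and -0.02. The same windows had medians of 0.26 and 0.28, and of 0.23 and 0.25, in the Pcgf1/2/4-/- libraries, and were below 0 in all 8 libraries of the other knockout lines on both chromosomes, from -0.03 to -0.77. The medians over all 9514 genes were also below 0 in these 8 libraries, from -0.002 to -0.18. The windows were chosen after their values were seen. Slc44a3 lies within the span on chromosome 3, though below that level, and Tspan5 outside it. Whether the position bears on the raised genes was not tested.

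In the authors' deposited table of this comparison, 230 genes were higher and 517 lower at an adjusted p below 0.05 and a log2 fold change of at least 2 in size. In the present fit 97 of these 230 and 355 of these 517 passed the test in the same direction, none in the opposite direction, and 102 and 392 were tested at all.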

How the data were processed

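RNA from 14 libraries of 7 mouse embryonic stem cell lines was deposited as counts per gene, made by the authors from poly-A RNA by a SMART-seq2-type protocol; per the submitters' processing notes, TopHat2 2.1.1 and HTSeq 0.7.2 were among the tools, with mm9 as the build. Strand use in counting is not given in the sources used here, so overlapping and antisense genes cannot be told apart. Peak lists, 1 ChIP library each, carry the authors' −log10 q, and MACS2 2.1.1 is named in the submitters' processing notes. The authors' deposited table gives log2 fold changes and adjusted p-values. Columns without a sample numbered 0.

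Counts were fitted with edgeR 4.0.16 (quasi-likelihood test, TMM factors, filterByExpr with a minimum count of 10, which is 1.45 CPM here) in R 4.3.3, with Benjamini-Hochberg adjustment over all tested genes and 0.05 as the threshold. The 4-library fit left 2 residual degrees of freedom. Log2 CPM used a prior count of 2, and a value per library is CPM on TMM-scaled totals. Promoters reach 2.5 kb to either side of each annotated start (GENCODE M1, mm9), and 21001 of 23377 symbols matched. The script was tested on simulated counts. Alternatives were RLE factors, DESeq2 1.42.0, no filter, all 14 libraries, a replicate block, loess offsets (limma 3.58.1), thinning, leaving out libraries, and other promoter windows and peak thresholds; summing wild-type, leaving 1 knockout library out of the 14-library fit, and the interaction were added after the data were seen.

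Named genes are the targeted ones, the 12 raised and 12 lowered genes (adjusted p below 0.05, mean log2 CPM of at least 2) whose smaller move over the 2 knockout libraries was largest, 6 and 6 likewise of the canonical class, and list members. Members and lists were chosen with earlier results of these data known. Exact intervals and floors (3 counts) cover counting error only. Some items are not reported here.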

Additional observations from a re-analysis of the deposited data

Results flagged for a closer look

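For 30 of the 34 named genes the log2 difference of Pcgf2/4-/- from wild-type was unlike that of Pcgf1/2/4-/- from Pcgf1-/-. This was read from the interaction term of the 14-library edgeR fit (Pcgf2/4-/- minus wild-type, less Pcgf1/2/4-/- minus Pcgf1-/-). Other differences between the lines can enter the term, and their part was not tested. Over all genes, 2599 of 15464 had a positive term (16.8%) and 2185 a negative one (14.1%). The genes were named for a large first effect, so a large term is partly built into the choice and the count of 30 is no evidence of its own.

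Among genes raised in Pcgf2/4-/-, the log2 term was 3.49 for Hoxa9, 1.70 for Hoxa10, 3.91 for Fggy, 2.18 for Gucy1a2, 4.56 for Slc44a3, 2.78 for Lpar4 and 3.83 for Maml2. It was 2.26 for Ttn, 1.51 for Fam83h, 1.55 for Txlnb, 3.01 for Gm4371, 1.70 for Zfp385b, 2.62 for Tspan5 and 1.07 for Sfmbt2. In each the log2 difference was more positive for Pcgf2/4-/- against wild-type than for Pcgf1/2/4-/- against Pcgf1-/-.

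Among genes lowered in Pcgf2/4-/-, the term was -8.95 for Ddx3y, -7.45 for Htra1, -7.14 for Crabp1 and -4.43 for Aebp1. These were higher in Pcgf1/2/4-/- than in Pcgf1-/-. The term was -5.14 for Uba1y, -4.68 for Ptgs1, -2.97 for Gm216, -2.29 for Trf and -2.84 for Tspan7. For Camkv, Slc51a, Pfkfb3, Aif1l and Rbp4 it was -2.38, -3.14, -1.84, -2.03 and -2.03. Y-linked Ddx3y and Uba1y were already low in Pcgf1-/- (0.328 and 0.229 CPM, and 2.08 and 0.457). A fall as in Pcgf2/4-/- could not be seen there. The targeted Pcgf2, which was not called in Pcgf2/4-/-, had a term of -0.85.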

How the results depend on the processing

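The number of changed genes differed widely between fits, and the cause was not tested. Against 1146 changed genes, of which 38.4% were raised, DESeq2 called 614 (31.4% raised), edgeR with no filter on low counts 271 (31.4%), loess offsets 2331 (48.8%), thinning to the shallowest library 538 (29.9%), wild-type summed 625 (26.6%) and all 14 libraries 3340. The 14-library fit without knockout library 1 called 3507 (54.7%) and without library 2 4704 (41.8%), and a log2 fold change of at least 1 left 31.1% raised. Leaving out 1 library at a time gave 438 to 7219 changed genes and 25.7 to 53.2% raised; the high counts came without a knockout library, where the lone sample is assumed to vary like the wild-type pair. In the canonical PRC1 class, 45 raised genes became 24 with DESeq2, 9 with no filter, 127 with all 14 libraries, 126 with loess offsets, 11 with thinning, 20 to 231 with 1 library left out and 179 in the 14-library fit without knockout library 1. Its 169 lowered genes became 105, 42 and 335 with DESeq2, no filter and all 14 libraries, 86 with thinning, 94 to 346 with 1 library left out, and 292 and 296 in the 14-library fit without knockout libraries 1 and 2. Its median of -0.32 ran from -0.74 to -0.21 with 1 library left out, was -0.14 with loess offsets and -0.85 in the 14-library fit without library 2. The targeted gene Pcgf2 (0.15) ran from -0.059 without knockout library 2 to 0.28 without library 1 (edgeR adjusted p = 0.00477), and was -0.16 without library 2 among 14 libraries. On the Pcgf1-/- background, 6160 changed genes became 3658 with DESeq2 and 3493 to 8317 with 1 library left out; the count fell to 3551 and 3493 without Pcgf1/2/4-/- replicates 1 and 2. With replicate number as a block 1510 genes changed in Pcgf2/4-/-, 34.8% of them raised, and 5615 on the Pcgf1-/- background; same-numbered deviations correlated at -0.065 over 2 pairs, but the wild-type libraries differ only by sampling noise, so this cannot show whether the numbers pair the samples. Of 34 named genes, 9 and 5 missed the threshold without wild-type replicates 1 and 2, 4 with wild-type summed, 4 with no filter and 2 with thinning, all in the same direction.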
